A study of Mus musculus with 8 samples.

Results

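The genes examined here are 10 immediate early genes of neuronal activity, measured in layers II-IV of the mouse neocortex at postnatal day 5. They are Fos, Fosb, Junb, Egr1, Egr2, Arc, Npas4, Nr4a1, Dusp1 and Btg2, a list drawn up by name. It was chosen with earlier results of these data known. Each gene was taken from a probe set that names only that gene. All 10 had 1 such probe set, among 19938 genes on the array that did. The tissue was cut out by laser microdissection, and RNA of each pup was read on 1 Affymetrix Mouse Gene 1.0 ST array. The 4 Bcl6 mutant pups were Bcl6 flox/flox;Nex Cre/+ and the 4 Bcl6 control pups Bcl6 flox/flox;Nex +/+, so both groups carry the floxed Bcl6 alleles and Cre sets them apart. Bcl6 is a zinc-finger repressor of transcription, and the series title places the question in the developmental death of cortical projection neurons.

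Cre stands in the locus of Nex, another name of Neurod6, and is made in excitatory neurons, so other cells of the captured tissue keep their Bcl6 alleles. Loss of Bcl6, presence of Cre and the altered Neurod6 allele cannot be told apart in this design. The Bcl6 probe set itself read 6.61 to 6.96 (log2) in the arrays labelled mutant and 6.23 to 6.58 in those labelled control, so it does not show the deletion. Where its probes lie relative to the floxed exons is not stated in these sources. Every direction below therefore rests on the labels. Neurod6 read 8.69 to 9.07 in mutants and 9.15 to 9.41 in controls. Mutant replicates 1 and 4 read 9.78 and 9.76 for Xist, the RNA of the inactive X chromosome, against 2.64 to 3.41 in the other 6 pups, so the sexes were mixed unevenly between the groups. Array medians lay between 4.94 and 5.01, correlations between arrays between 0.9904 and 0.9939, and 13 genes passed the threshold between genotypes.

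Immediate early genes are transcribed within minutes of a stimulus, from factors already present in the cell and without new protein synthesis. In neurons, calcium entry through NMDA receptors and L-type channels activates kinases that phosphorylate CREB and the partners of SRF, which sit on promoters at cAMP response elements (CRE) and CArG boxes. The products are partly transcription factors that drive a later wave of genes and partly effectors that act at synapses or shut the signal down. In the cortex they are used to mark recently active neurons, and their levels are low in unstimulated tissue.

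The promoters of the members are shown because these elements are what the genes are known to have in common. RefSeq windows of GRCm38.p6, reaching from 250 bases before to 50 bases after a transcript start, were matched for 8 of the 10 genes, and Egr1 and Arc were not matched. The windows below belong to Fos, the prototype of the class, to Egr2, to Npas4 and Nr4a1, the pair of members most alike over the pups, and to Dusp1, the member with the smallest p between genotypes. Egr2 has 5 windows, of which 1 is given. Capitals mark every match, on either strand, to one of 8 motifs.
Fos (chr12:85473640-85473939, plus strand): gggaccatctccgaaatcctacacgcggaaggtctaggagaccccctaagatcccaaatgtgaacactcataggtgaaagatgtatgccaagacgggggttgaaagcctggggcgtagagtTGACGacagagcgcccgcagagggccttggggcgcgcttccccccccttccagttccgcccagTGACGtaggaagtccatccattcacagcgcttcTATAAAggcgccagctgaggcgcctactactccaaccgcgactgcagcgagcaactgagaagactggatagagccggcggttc
Egr2 (chr10:67537619-67537918, plus strand): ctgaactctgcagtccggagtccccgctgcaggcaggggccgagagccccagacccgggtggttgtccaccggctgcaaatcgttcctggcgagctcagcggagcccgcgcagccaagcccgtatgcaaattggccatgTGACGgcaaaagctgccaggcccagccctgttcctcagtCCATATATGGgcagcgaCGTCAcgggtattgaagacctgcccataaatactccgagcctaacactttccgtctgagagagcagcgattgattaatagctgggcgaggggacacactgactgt
Npas4 (chr19:4989922-4990221, minus strand): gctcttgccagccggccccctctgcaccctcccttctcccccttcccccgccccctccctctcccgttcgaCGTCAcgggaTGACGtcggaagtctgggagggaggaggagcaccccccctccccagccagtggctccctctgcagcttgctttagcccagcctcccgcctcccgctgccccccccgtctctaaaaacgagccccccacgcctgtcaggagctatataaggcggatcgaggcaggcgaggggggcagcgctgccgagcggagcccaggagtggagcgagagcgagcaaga
Nr4a1 (chr15:101266596-101266895, plus strand): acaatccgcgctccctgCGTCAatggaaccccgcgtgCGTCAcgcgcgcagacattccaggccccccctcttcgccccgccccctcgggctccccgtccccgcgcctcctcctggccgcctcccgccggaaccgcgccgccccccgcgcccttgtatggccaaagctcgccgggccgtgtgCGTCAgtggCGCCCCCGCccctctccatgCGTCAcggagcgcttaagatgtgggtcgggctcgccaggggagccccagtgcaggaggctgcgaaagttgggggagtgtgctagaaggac
Dusp1 (chr17:26508423-26508722, minus strand): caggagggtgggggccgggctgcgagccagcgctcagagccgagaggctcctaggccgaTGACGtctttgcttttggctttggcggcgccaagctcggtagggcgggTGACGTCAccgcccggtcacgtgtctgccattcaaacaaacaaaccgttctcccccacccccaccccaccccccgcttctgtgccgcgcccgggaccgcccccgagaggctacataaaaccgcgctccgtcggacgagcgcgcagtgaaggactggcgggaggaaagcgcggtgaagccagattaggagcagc

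The motifs searched were the CRE (TGACGTCA), the CRE core (TGACG, also contained in the CRE), the CArG box by name, the EGR site (GCGGGGGCG), the AP-1 site (TGANTCA), the NBRE bound by NR4A1 (AAAGGTCA), a BCL6-like site (TTCNNAGAA) and the TATA box (TATAAA). A CRE core occurred in at least 1 window of each of the 8 genes, against 20.8% of all 32851 windows of the table. A gene was counted if any of its windows matched, while the shares are of single windows. Only Egr2 had several windows, and not all of them held a CRE core. Nr4a1 held 4 of them, and Npas4 held 2 that lie between bases -179 and -165, counted from the start. Dusp1 and Btg2 held a whole CRE, which 1.79% of all windows hold. The CArG box was matched in Egr2, at bases -72 to -63 of the window shown, and in 1.63% of all windows. Fosb and Nr4a1 held an EGR site, present in 2.91% of windows. A TATA box was matched at bases -33 to -28 in Fos and at bases 1 to 6 in Junb, and in 13.6% of all windows. No member's window matched the AP-1 site, the NBRE or the BCL6-like site, which occur in 7.81%, 1.51% and 5.19% of windows. These are matches of letters and not measured binding. Sequence more than 250 bases before a start, and any of Egr1 and Arc, was not searched. A motif without a match here can therefore still lie elsewhere near the gene.

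**Figure D1:**
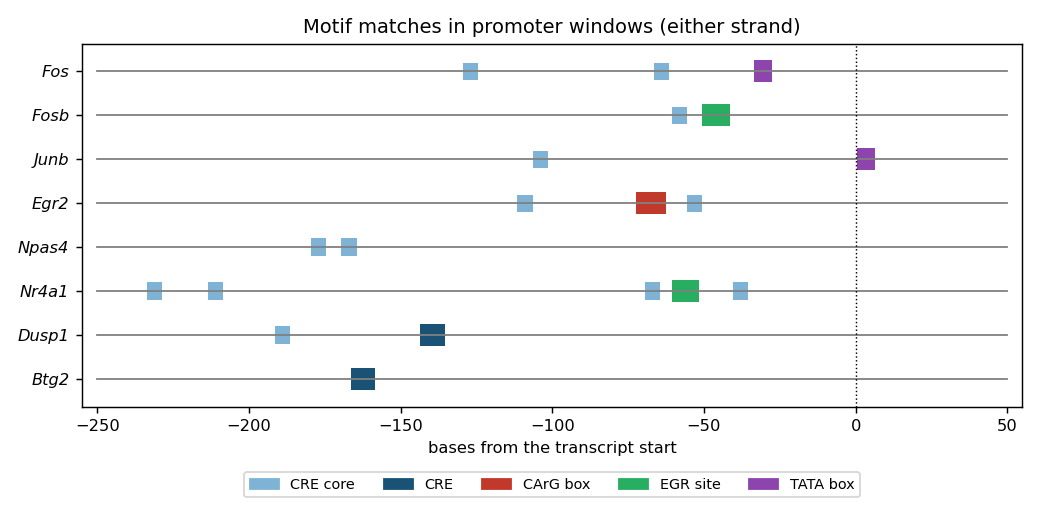
Motif matches on either strand (coloured boxes) in the promoter windows of 8 immediate early genes (y axis), by distance in bases from the transcript start (x axis, dotted line at the start). Light blue CRE cores appear in 7 windows as boxes of their own, and those of Btg2 lie within its dark blue CRE, as further ones do in Dusp1. Egr2 is shown by the window printed in the text.

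The AP-1 genes are described first. FOS and FOSB form dimers with JUN proteins, among them JUNB, and bind AP-1 sites. Fos read 4.91, 4.97, 4.93 and 4.83 (log2) in mutant replicates 1 to 4, against 5.26, 4.95, 4.83 and 4.77 in control replicates 1 to 4. Its highest value belonged to control replicate 1 and its lowest to control replicate 4, so the controls spanned the mutants on both sides. The difference, mutant minus control, was -0.04 ± 0.10 (SE, n = 4 per group). Fosb read 4.64, 4.80, 4.65 and 4.40 in mutants and 4.64, 4.76, 4.61 and 4.66 in controls. Here the mutants enclosed the controls, with mutant replicate 2 highest and mutant replicate 4 lowest, and the difference was -0.04 ± 0.08. Junb read 5.12, 5.34, 5.07 and 5.39 in mutants and 5.29, 5.24, 5.20 and 5.20 in controls. Mutant values of Junb fell into a higher and a lower pair around the tight control values, and the means were 5.23 in both groups, a difference of -0.0033 ± 0.080.

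Egr1 and Egr2 encode zinc-finger activators that bind GC-rich sites, and EGR2 is also known for its part in hindbrain segmentation and myelination. Egr1 read 5.81, 5.57, 5.67 and 5.55 in mutants and 5.74, 5.74, 5.88 and 5.69 in controls. Mutant replicates 2, 3 and 4 lay below every control and mutant replicate 1 lay among them. The means were 5.65 ± 0.12 in mutants and 5.76 ± 0.08 in controls (SD, n = 4 each), a difference of -0.11 ± 0.08 (SE). Egr2 read 4.95, 4.82, 5.05 and 4.95 in mutants and 4.99, 5.10, 5.03 and 4.93 in controls. The groups overlapped, and the difference was -0.07 ± 0.07.

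NPAS4 is a neuron-specific bHLH-PAS factor that responds to calcium entry and controls inhibitory synapses, and NR4A1 is an orphan nuclear receptor found in many cell types. Npas4 read 4.48, 4.68, 4.55 and 4.44 in mutants and 4.49, 4.59, 4.72 and 4.75 in controls. Nr4a1 read 5.68, 6.04, 5.96 and 5.84 in mutants and 5.70, 6.05, 6.07 and 6.17 in controls. In both genes control replicate 1 was the lowest control and control replicate 4 the highest, and mutant replicate 2 was the highest mutant. The differences were -0.10 ± 0.08 for Npas4 and -0.12 ± 0.11 for Nr4a1. Nr4a1 varied more between pups of a genotype than most genes, with a pooled SD of 0.18, which 87.6% of all genes fell short of.

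The remaining members act outside transcription or as brakes. ARC is a synaptic protein that promotes the removal of AMPA receptors from the membrane. Arc read 4.61, 4.61, 4.66 and 4.74 in mutants and 4.78, 4.73, 4.78 and 4.72 in controls. Only mutant replicate 4 reached into the control range. The means were 4.66 ± 0.06 in mutants and 4.75 ± 0.03 in controls (SD, n = 4 each), and the difference was -0.10 ± 0.06 (SE). Arc was the steadiest member, with a pooled SD of 0.05, and 3.92% of all genes had a smaller one. BTG2 is an antiproliferative protein that p53 and growth signals also induce. Btg2 read 4.42, 4.25, 4.29 and 4.41 in mutants and 4.37, 4.47, 4.31 and 4.40 in controls. Its groups overlapped widely, and the difference was -0.04 ± 0.07.

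DUSP1 is a phosphatase that switches MAP kinases off and so limits the signal that induces its own gene. Dusp1 read 7.13, 6.78, 7.08 and 7.09 in mutants, against 7.32, 7.14, 7.21 and 7.27 in controls. It was the member whose groups did not overlap, although the highest mutant and the lowest control were only 7.13 and 7.14. Means were 7.02 ± 0.16 in mutants and 7.23 ± 0.08 in controls (SD, n = 4 each), so mutants held 0.862-fold the control level. The difference was -0.22 ± 0.08 (SE), with a 95% interval from -0.40 to -0.03. The exact permutation test over the 8 pups gave p = 0.0286 (two-sided), the smallest that 4 against 4 allow, and limma gave an adjusted p of 0.988 over all genes. Without mutant replicate 2 the value was -0.14 ± 0.07, with an unadjusted limma p of 0.0791. That p was 0.0678 without control replicate 1 and 0.0531 without control replicate 4, where the value was -0.19 ± 0.09 and -0.20 ± 0.09. Of all 19938 genes, 1.79% were lower in mutants without overlap, so 1 such gene among 10 members is to be read against that share.

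**Figure D2:**
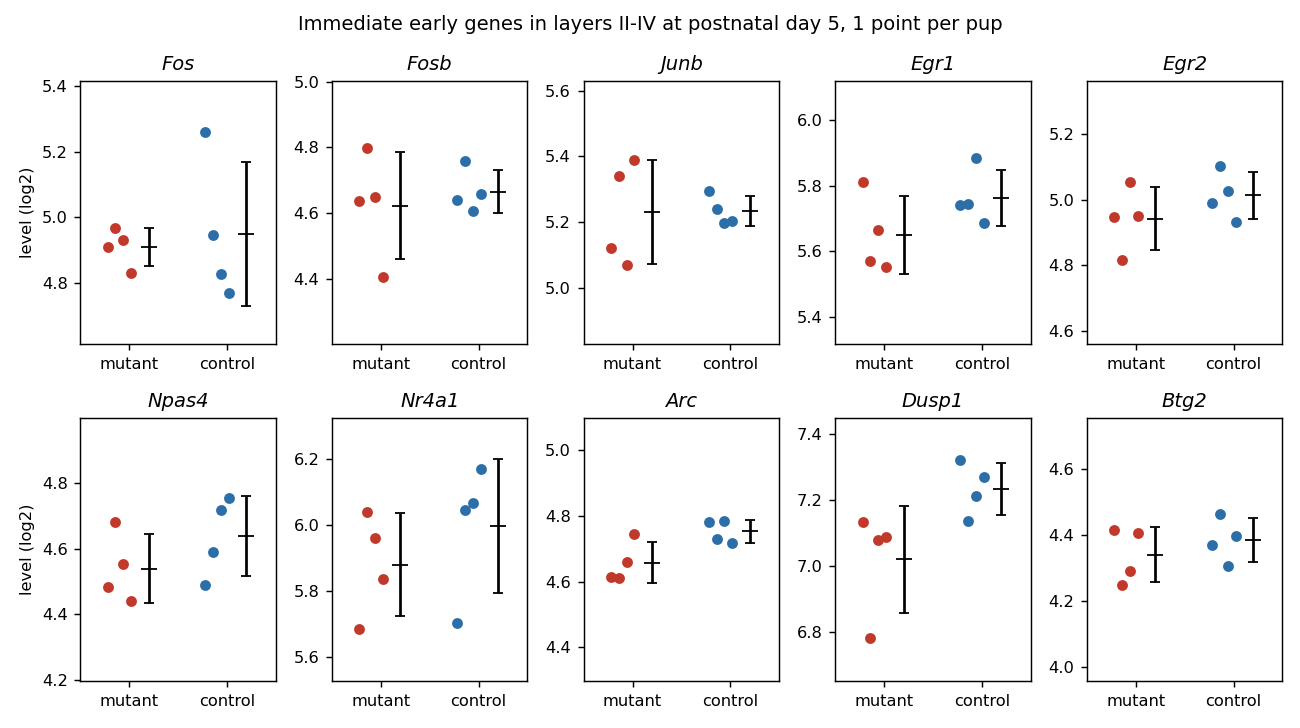
Deposited log2 levels (y axis, each panel spanning the same range) of the 10 immediate early genes, 1 point per pup, for mutants (red) and controls (blue), with bars for the mean and SD of each group. Mutant and control points overlap in every gene but Dusp1, where mutants reach 7.13 and controls start at 7.14.

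The comparison of the genotypes asked whether any of these activity genes differed when Bcl6 was targeted in excitatory neurons. None of the 10 passed limma's adjusted threshold of 0.05, against 0.0652% of all genes, and their adjusted p lay between 0.988 and 1.00. At an unadjusted p under 0.05 there was 1 member, Dusp1, against 4.91% of all genes. The 95% intervals of the 10 differences reached from -0.40 at the lowest to 0.17 at the highest. Larger shifts of the measured log2 level in either direction lie outside them. How far these levels follow transcript amounts in the dim members was not tested. In simulations with 200 changed genes, differences of 0.25 log2 passed the adjusted threshold in 6.2% of cases. In that setting the threshold missed most differences this small. The rate depends on how many genes change, which is not known for these data. In bulk tissue, fewer cells of a type and less RNA per cell cannot be told apart.

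All 10 differences were below 0, against 55.4% of all genes, with Junb at -0.0033 the nearest to it. Their median was -0.083 and that of all genes -0.0096, while the median SE was 0.080 for the members and 0.079 for all genes. Junb turned positive after quantile normalization (0.0039) and after median centring (0.010), which left 9 of 10 below 0, with a members' median of -0.069 under both. The median of all genes was -0.0061 and 0.0041 under these scalings. Dim genes leaned the same way: below a mean level of 5, where Fos, Fosb, Egr2, Arc, Npas4 and Btg2 lie, 59.1% of 8400 genes were below 0, against 52.7% of the 11538 genes at or above it. The 6 dimmer members had a median difference of -0.058 and the 4 brighter ones of -0.12. The part of array-wide shifts in the members' common direction was not tested. The members were chosen with earlier results of these data known, and no test was made of their common sign.

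**Figure D3:**
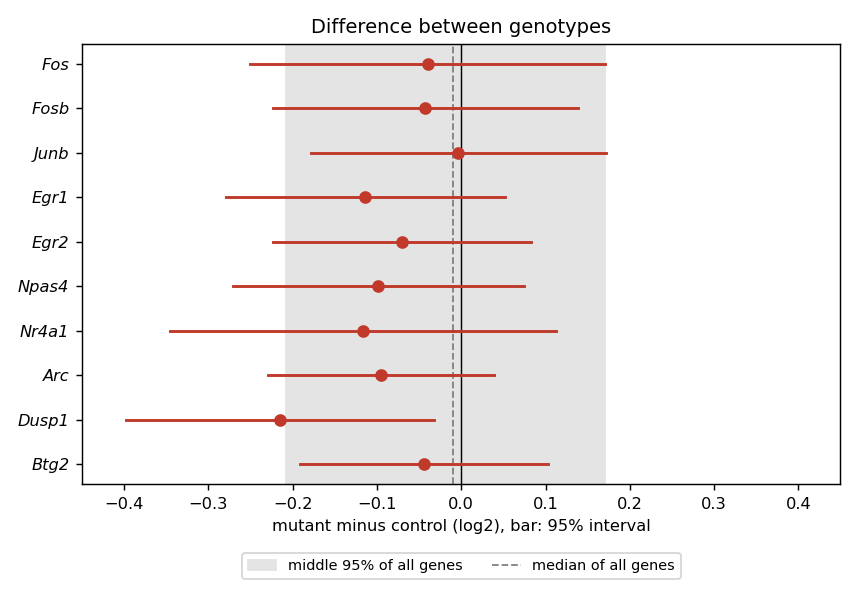
Each immediate early gene (y axis) by its log2 level in mutants minus that in controls (x axis), with bars for the 95% interval from limma. All 10 points lie left of 0, 9 of the 10 bars cross 0, and the grey band holds the middle 95% of all genes, from -0.21 to 0.17.

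Some values changed in fits that took account of sex. Both Xist-high pups were mutants, so sex cannot be told apart from those 2 pups. With the averaged Eif2s3y, Kdm5d and Uty, which are Y-linked, as a covariate, the difference of Dusp1 was -0.31 ± 0.09 (limma adjusted p = 0.999). Without the 2 Xist-high mutants it was -0.31 ± 0.10, which leaves mutant replicates 2 and 3, at 6.78 and 7.08. Fosb read 0.06 ± 0.09 in both of these fits, and Nr4a1 read 0.0019 ± 0.12 and 0.0041 ± 0.12, so neither was below 0 there. Without mutant replicate 4 alone Fosb read 0.03 ± 0.08, and without mutant replicate 1 alone -0.05 ± 0.09. Nr4a1 was below 0 with either of them alone left out, at -0.10 and -0.05. Npas4 read -0.02 ± 0.09 with the covariate and -0.02 ± 0.10 without the 2 pups, and Fos -0.0019 ± 0.12 and -0.00024 ± 0.13. Btg2 was further below 0, at -0.11 ± 0.08 and -0.12 ± 0.08. Because every control read like the other mutants for Xist, no difference within the Xist-high pups could be formed.

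Co-variation over the 8 pups was examined next, since genes induced by one stimulus would be high and low in the same animals. The 45 pairs of members had a median Pearson r of 0.052, against 0.017 over all pairs of the 19938 genes. Of these pairs, 26 were positive (57.8%, against 51.5% of all pairs), and 6 reached an r of 0.5 (13.3%, against 11.8%). The range ran from -0.57 for Fos and Nr4a1 to 0.88 for Npas4 and Nr4a1. Taken as deviations from each genotype's mean, the median was -0.082 against 0.016 over all pairs, and 42.2% of the pairs were positive against 51.3%. By this measure 1 pair reached 0.5 (2.22%, against 14% of all pairs). At -0.5 or lower there were 10, against 2 over the deposited values. The share of all pairs this low was not counted, so the 10 cannot be judged against it. All pairs rest on the same 8 arrays, and no test was made of these medians. Below a mean level of 5 lie 6 of the members, and there are no detection calls. The part of array noise in their variation between pups was not tested, so a low r does not show that shared induction was absent.

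Npas4 and Nr4a1 were the pair that followed each other most closely. Pearson's r was 0.88 (exact permutation p = 0.00687, n = 8) and Spearman's rho 0.905 (exact permutation p = 0.00456), and after Benjamini-Hochberg adjustment over the 45 pairs these p were 0.309 and 0.205. Without control replicates 3 and 4, the pups farthest from the median of Npas4, r was 0.79. As deviations from the genotype means it was 0.86 (exact permutation within genotypes, p = 0.00868, adjusted p = 0.391). Control replicate 1 and mutant replicates 1 and 4 were low in both genes, and control replicates 3 and 4 and mutant replicate 2 were high in both. Among all pairs of genes, 0.291% reached an r as high. The pair was singled out after its values were seen, as the highest of 45. An opposite pair was as strong within genotypes: Fosb and Arc had an r of -0.86 as deviations from the genotype means (exact permutation within genotypes, p = 0.0312, n = 8, adjusted p = 0.703), against -0.43 over the deposited values (exact permutation p = 0.313, adjusted p = 0.958).

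Arc and Dusp1 came next, with an r of 0.70 (exact permutation p = 0.0353, n = 8, adjusted p = 0.794) and a rho of 0.67 (exact permutation p = 0.0831, adjusted p = 0.915). Their r was 0.59 without mutant replicates 1 and 2 and 0.39 as deviations from the genotype means (exact permutation p = 0.474, adjusted p = 0.927). The pooled value thus holds the lower mutant means of both genes. Pairs that share a family or a dimer had a lower r than Arc and Dusp1. Their r was 0.26 for Fos and Fosb, 0.17 for Fos and Junb, -0.21 for Fosb and Junb and 0.50 for Egr1 and Egr2. The median of all 45 pairs was 0.052. For these family or dimer pairs the exact permutation p ran from 0.209 to 0.697 (n = 8), with an adjusted p of 0.958 for each. Fos and Fosb reached 0.85 without control replicates 1 and 4. Leaving out 2 pups moved unrelated pairs as far: Egr2 and Btg2 went from 0.41 to -0.97 without mutant replicate 2 and control replicate 2. Fos ran against Npas4 and Nr4a1, with an r of -0.43 and -0.57 (exact permutation p = 0.315 and 0.128, n = 8, adjusted p = 0.958 for both), and these became 0.16 and 0.17 without control replicates 1 and 4.

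**Figure D4:**
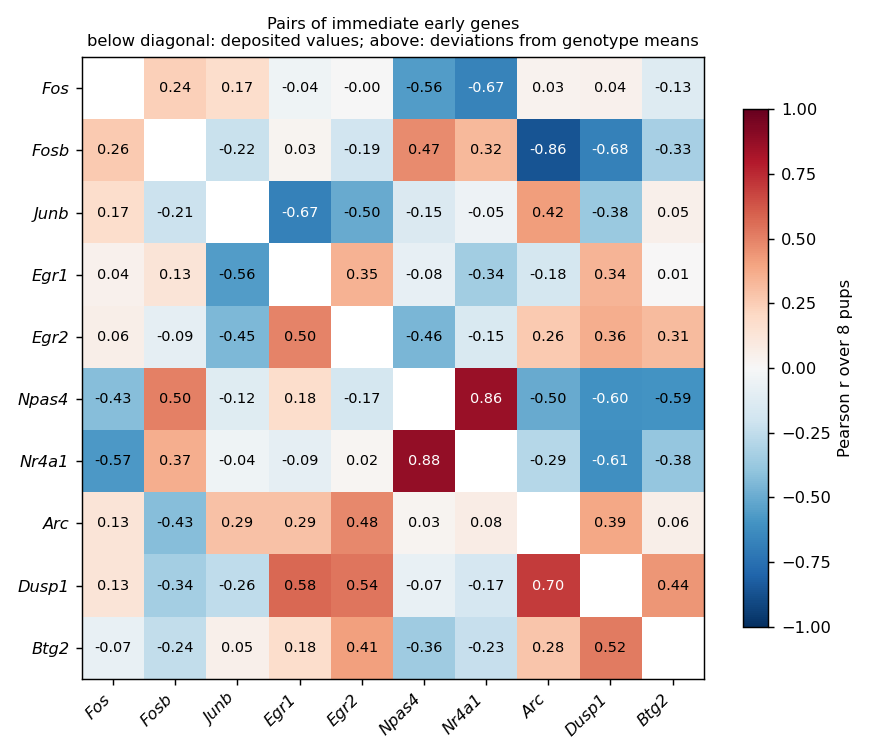
Pearson r over 8 pups for each of the 45 pairs of immediate early genes (both axes), from the deposited values below the diagonal and from deviations from genotype means above it. The cell of Npas4 and Nr4a1 is darkest red on both sides (0.88 and 0.86), and above the diagonal Fosb and Arc form the darkest blue one (-0.86).

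**Figure D5:**
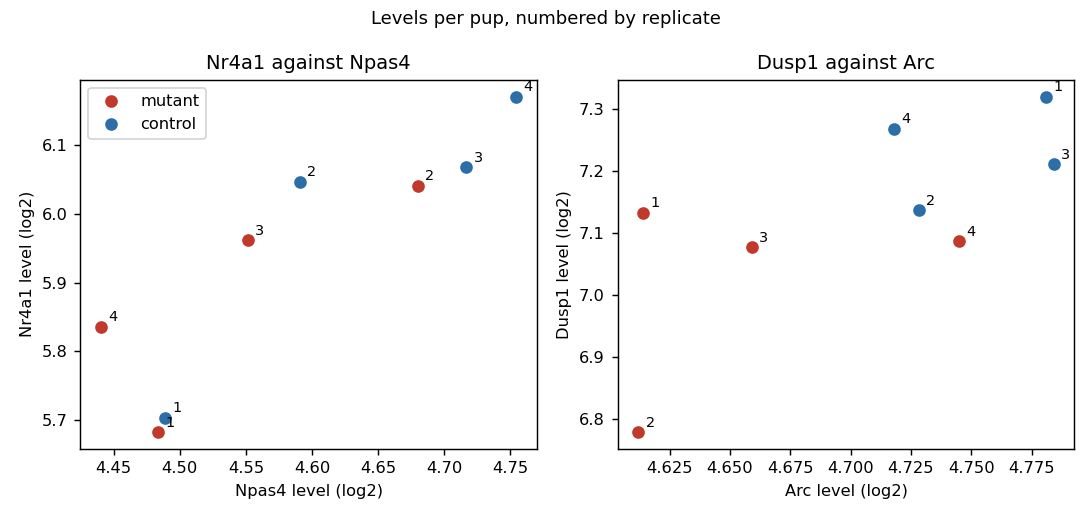
Level per pup (log2) of Nr4a1 against Npas4 on the left and of Dusp1 against Arc on the right, mutants in red and controls in blue, numbered by replicate. On the left Nr4a1 rises with Npas4 in both genotypes, while on the right the controls sit above the mutants with an r of 0.39 once genotype means are removed.

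The pups were then compared over the whole list. Of the 10 members, 2, 5, 3 and 3 were above their 8-pup median in mutant replicates 1 to 4, against 6, 10, 6 and 5 in control replicates 1 to 4. Control replicate 2 stood above the median in every member, although it held the highest value only for Egr2 and Btg2. The lowest values of Egr2, Arc, Dusp1 and Btg2 belonged to mutant replicate 2 and those of Fosb, Egr1 and Npas4 to mutant replicate 4. The mean of the members' centred levels was -0.045, -0.036, -0.030 and -0.057 in mutant replicates 1 to 4 and 0.038, 0.055, 0.041 and 0.035 in control replicates 1 to 4, which do not overlap. The members' common sign enters this mean, and no test was made of it.

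Against the mean of the other 9 members, r was highest for Arc (0.55), then Egr1 (0.34), Egr2 (0.34) and Dusp1 (0.30), and lowest for Junb (-0.30). Outside the list, the 8 genes most like the mean of all 10 members over the 8 arrays were Gstt2, Otp, Lefty2, Zbtb16, Capn6, Scgb3a2, Smad7 and Teddm1a, with r from 0.92 to 0.98. Lefty2, a secreted inhibitor of Nodal signalling, is the one of them past the threshold, at -0.45 ± 0.07 (SE, limma adjusted p = 0.0320). All 8 read lower in mutants, by 0.31 or less apart from Lefty2, and the profile itself separates the genotypes.

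Other immediate early genes were read in the same way. Of 39 tested beside the members, 26 differences were negative (66.7%, against 55.4% of all genes) and 13 positive, with a median of -0.049. In limma 0 passed the adjusted threshold (against 0.0652% of all genes) and 3 had an unadjusted p under 0.05 (7.69%, against 4.91% of all genes). These were Dusp5 (-0.22 ± 0.08, SE), a phosphatase of nuclear ERK, Ptgs2 (-0.22 ± 0.08), the inducible cyclooxygenase, and Dusp6 (-0.22 ± 0.10), a phosphatase of cytoplasmic ERK. Their adjusted p were 0.932, 0.933 and 1.00. Dusp4, a further phosphatase of MAP kinases, read -0.20 ± 0.09 with an adjusted p of 1.00, and it was picked, like Dusp6, after its values were seen. Jun, the main partner of FOS, read -0.09 ± 0.08 and Egr3 0.0020 ± 0.086. Homer1, whose short form is induced by activity at synapses, read -0.03 ± 0.07.

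Of 19 genes of the delayed wave 13 differences were negative (68.4%, against 55.4% of all genes), with a median of -0.020. In limma 0 passed the adjusted threshold (against 0.0652% of all genes) and 2 had an unadjusted p under 0.05 (10.5%, against 4.91%). Adcyap1, the neuropeptide PACAP, read 6.848, 6.773, 6.709 and 6.769 in mutants and 6.938, 7.060, 6.999 and 6.872 in controls (-0.19 ± 0.07, limma adjusted p = 0.907). Rgs4, a regulator of G protein signalling, read -0.49 ± 0.18 (adjusted p = 0.932). Bdnf, the neurotrophin that NPAS4 and CREB act on, read -0.02 ± 0.07.

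The factors that switch these genes on gave 0 members at an unadjusted p under 0.05 in limma, against 4.91% of all genes. Past the adjusted threshold there were 0, against 0.0652%. Among the 33 kinases, channels and transcription factors tested, 16 differences were positive and 17 negative, with a median of -0.0031. Srf read -0.03 ± 0.07 and Creb1 0.0091 ± 0.070. The smallest p belonged to Crtc2, a coactivator of CREB (0.17 ± 0.09), and Grin2a, an NMDA receptor subunit (0.16 ± 0.08). Of 15 dimer partners and corepressors 9 had negative differences (median -0.0043). Again 0 members were at either level in limma, beside the same shares of all genes, and Rxra (-0.17 ± 0.11) and Maf (0.09 ± 0.06) came closest.

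Markers of the cells in the captured tissue were read beside these values, as mean level of each list per pup. Excitatory neuron markers (7 tested, 3 higher and 4 lower in mutants) averaged 9.25 to 9.37 in mutants and 9.27 to 9.47 in controls, with Neurod6 at -0.39 ± 0.09 and Tbr1, a factor of early-born projection neurons, at 0.17 ± 0.07. Neurod6 is the locus that carries Cre in the mutants, so its level does not serve as a neuron marker here, yet it enters these averages. Microglia markers (11 tested, 2 higher and 9 lower) averaged 4.50 to 4.59 in mutants and 4.55 to 4.75 in controls, with Fcer1g at -0.29 ± 0.10 and P2ry12 at -0.27 ± 0.10. Endothelial markers (10 tested, 8 higher) averaged 6.30 to 6.56 in mutants and 6.37 to 6.50 in controls, and Flt1 and Slc2a1 read 0.14 ± 0.08 and 0.11 ± 0.07. Astrocyte markers (9 tested, 8 higher) averaged 7.52 to 7.73 in mutants and 7.57 to 7.69 in controls, with Fgfr3 at 0.12 ± 0.07 and Gfap at -0.11 ± 0.06. Their part in the members' values was not tested. Log2 levels have no true zero and the table holds no detection calls, so no marker could be given as absent.

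Of the 6 other marker lists, interneuron markers were higher in 8 of 12 cases, with Reln at 0.17 ± 0.07 and Calb2 at 0.24 ± 0.11, and the oligodendrocyte lineage in 6 of 9, with Bcas1 at 0.24 ± 0.07 and Mag at -0.14 ± 0.08. Mural and meningeal markers were higher in 5 of 11, with Dcn at -0.55 ± 0.25 and Pdgfrb at 0.14 ± 0.08, and markers of dividing cells and progenitors in 5 of 8, with Mki67 at 0.16 ± 0.08 and Pax6 at -0.10 ± 0.08. Of the 3 red cell genes tested, 1 was higher, and Slc4a1 and Alas2 read -0.20 ± 0.08 and -0.10 ± 0.08. Heat shock and other stress genes are ones that handling of tissue can induce along with immediate early genes. Of the 13 tested, 10 had negative differences (76.9%, against 55.4% of all genes), with a median of -0.033. Cryab read -0.17 ± 0.07 and Hspb1 0.15 ± 0.06, both small heat shock proteins, without overlap between the groups and in opposite directions. Of all genes, 1.79% were lower in mutants without overlap, and the share higher without overlap was not counted. Over all 10 marker lists 0 of 93 markers passed limma's adjusted threshold, against 0.0652% of all genes. At an unadjusted p under 0.05 there were 12, which is 12.9% against 4.91% of all genes. Neurod6, the locus of Cre, is among the 12.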

How the data were processed

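Expression of layers II-IV was measured in 8 pups, 1 array each. The authors deposited log2 values for 35556 probe sets, made with BRB-ArrayTools per the labels' design text; background correction, normalization and versions are not stated in these sources. The log2 scale was read from the values, which reach 13.63, above the natural log of the highest 16-bit scanner value (11.09). The files hold no background or detection calls, and the number of arrays limits the precision.

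Probe sets were named from the platform annotation, with symbols updated to GRCm38.p6 by Entrez identifier for 21698. Of several probe sets of a gene the one with the highest mean was kept, which left 19938 genes. Mutants were compared with controls in limma 3.58.1 under R 4.3.3 (genotype only, two-sided, Benjamini-Hochberg over all genes, threshold 0.05), without a filter. Single genes were also tested by exact permutation of 4 against 4 pups. Correlations used exact permutation over 40320 pairings, or 576 within genotypes. The limma fit and the permutation of correlations were tested on simulated data, and the permutation of 4 against 4 pups was not. With 200 changed genes in each of 10 simulations, limma recovered 6.2% of differences of 0.25 log2 and 67.6% of those of 0.5. False calls made up 2.8%.

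Members and lists were chosen with earlier results of these data known. All members are named, with the 2 genes of smallest p and every called gene of each further list, genes a background sentence needs (Jun, Egr3, Homer1, Bdnf, Srf, Creb1), Bcl6, Neurod6 and the 8 genes most like the members' mean, with predicted genes, small RNAs and olfactory or vomeronasal receptors left out. Replicate numbers are not said to pair pups, and the check of same-numbered pups given at the end could not settle whether they do.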

Additional observations from a re-analysis of the deposited data

Results flagged for a closer look

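Dusp1 in mutant replicate 2 stood apart from its group. It read 6.78, while the nearest of the other 3 mutants read 7.08, a gap of 0.842 of the group's range, above Dixon's 95% critical value for 4 samples. It was the only such value among the 20 groups of 4 checked, 10 genes in each genotype, where chance flags about 1 in 20. The same pup held the lowest Egr2, Arc and Btg2 and the highest Fosb of the 8 pups.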

How the results depend on the processing

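No member passed the adjusted threshold in any of the settings run, with 0 to 2 at an unadjusted p under 0.05 in limma, and the adjusted p of Dusp1 ranged from 0.796 to 1.00. Egr1, Egr2, Arc, Npas4, Dusp1 and Btg2 stayed below 0 in every fit run. Junb was 0.0039 with quantile normalization, 0.0104 with median centring and 0.0022 with array weights. With the Y-linked covariate Fosb was 0.0608 and Nr4a1 0.0019, and without the 2 Xist-high mutants, a setting added after seeing the data, 0.0587 and 0.0041. Leaving out 1 array gave -0.1004 to 0.063 for Fos (positive without control replicate 1), -0.1013 to 0.0302 for Fosb (without mutant replicate 4) and -0.0558 to 0.0502 for Junb (without mutant replicate 1 or 3 or control replicate 1). It gave -0.2143 (without control replicate 1) to -0.0509 (without mutant replicate 1) for Nr4a1, -0.1077 to -0.0288 for Egr2, -0.0709 to -0.0142 for Btg2, -0.1483 to -0.0597 for Npas4, -0.1678 to -0.0735 for Egr1, -0.253 to -0.1352 for Dusp1 and -0.1245 to -0.0803 for Arc.

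The members' median difference (-0.083) was -0.069 with quantile normalization and with median centring, -0.115 over the 4 members at a mean level of at least 5, -0.215 for Dusp1 alone at 6, -0.052 with the Y-linked covariate and without the Xist-high mutants, and -0.099 to -0.070 leaving out 1 array. The median pairwise r (0.052) was -0.034 with quantile normalization, 0.0043 with median centring, -0.082 on deviations from genotype means, and -0.0004 (without control replicate 3) to 0.135 (without mutant replicate 2) leaving out 1 array. That of Npas4 and Nr4a1 lay between 0.828 and 0.907 leaving out 1 array. Over all genes, 13 calls became 4 with the Y-linked covariate, 2 without the Xist-high mutants and 3 to 13 leaving out 1 array; the cause was not tested.

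With the replicate number as a block (replicate block), 5 genes were called, 0 members passed, Dusp1 had an adjusted p of 0.796, and the median pairwise r was -0.295. Deviations of same-numbered pups correlated at -0.012, 0.029, 0.04 and 0.159, and 2 of the 4 mutants correlated best with the control of their own number. Without values of background, depth of signal could not be judged for the dim members.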
